A study of Mus musculus with 4 samples.

Results

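The 10 genes described here encode 6 matrix metalloproteinases (Mmp2, Mmp3, Mmp9, Mmp11, Mmp13 and Mmp14) and the 4 tissue inhibitors of metalloproteinases (Timp1 to Timp4), out of 49585 genes listed in the count files. They were chosen by symbol as members of these families, with earlier results of these data known. RNA came from C2C12 cells, a mouse myoblast line of strain C3H that forms myotubes when serum is lowered. One group of 2 libraries came from cells retrovirally transduced to overexpress C/EBPβ (hereafter C/EBPβ cells) and the other, also of 2 libraries, from cells given the empty pLXSN vector. Both kinds of cell were pools kept under G418 at 1200 µg/ml for 7 days, then proliferated for 2 days and were harvested 2 days after the change from 10% fetal bovine serum to 2% horse serum. Whether replicates were grown separately is not given, so the spread that p-values rest on is that of 4 libraries and may be technical.

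Matrix metalloproteinases (MMPs) are zinc-dependent proteases that are made as inactive zymogens and cut collagens, laminins, fibronectin and other proteins outside the cell. TIMPs bind the active site of MMPs and block it. In muscle, the gelatinases Mmp2 and Mmp9 and the membrane-bound Mmp14 are known from the remodelling of matrix around growing and regenerating fibres. Mmp14 on the cell surface uses Timp2 as an adaptor to activate the zymogen of Mmp2, so that Timp2 is both an inhibitor and a cofactor.

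The libraries held 50493417 and 36461091 fragments assigned to genes in C/EBPβ cells and 45448661 and 51537847 in empty-vector cells. Cebpb itself, the transduced gene, stood at 502 and 442 CPM (a gene's fragments relative to the TMM-scaled library total, the usual depth-scaled unit) in C/EBPβ cells, against 42.7 and 41.3 CPM in empty-vector cells. The muscle marker Myog averaged 602 ± 132 CPM in C/EBPβ cells and 1647 ± 114 CPM in empty-vector cells (mean ± SD, n = 2 each), while Myf5, an early myogenic factor, averaged 65.1 ± 8.51 CPM in C/EBPβ cells and 30.5 ± 3.43 CPM in empty-vector cells. Of 6 muscle markers 5 were lower and Myf5 was higher at an adjusted p under 0.05 in edgeR. Across all 15886 genes tested, 20.9% were lower and 22.3% higher. The 6 markers summed to 3127 and 4769 CPM in C/EBPβ cells, against 11890 and 12951 CPM in empty-vector cells. The part of these differences in the results on MMPs and TIMPs was not tested. In bulk RNA a change in the number of cells of a kind and a change in RNA per cell cannot be told apart. All 10 genes passed the filter on low counts, but Mmp3, Mmp9 and Mmp13 passed it through the C/EBPβ libraries alone and had to be high there to be tested.

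Most of the proteases stood higher in C/EBPβ cells, while among the inhibitors Timp3 and Timp4 were higher and Timp1 and Timp2 did not pass. Of the 10 genes, 6 were higher in C/EBPβ cells at an adjusted p under 0.05 in edgeR's quasi-likelihood test, namely Mmp2, Mmp3, Mmp9, Mmp13, Timp3 and Timp4. None was lower in edgeR, also at an unadjusted p under 0.05 (0 genes) and in limma-voom (0 genes), while DESeq2 called 1 lower, Timp2. Among all 15886 genes tested, 43.2% were called, 22.3% higher and 20.9% lower. Counting by role, 4 of the 6 proteases and 2 of the 4 inhibitors were higher. Besides Mmp2, these proteases were Mmp3, Mmp9 and Mmp13, which passed the filter through the C/EBPβ libraries alone. For 7 of the 10 genes both C/EBPβ libraries lay above both empty-vector libraries, as they did for 38.4% of all genes tested. Timp2 was the only gene of the 10 with both C/EBPβ libraries below, as 36.7% of all genes were. The median log2 fold change was 0.96 over the 10 genes and 0.01 over all genes tested. The median over the 10 genes includes Mmp3, Mmp9 and Mmp13, which had to be high in C/EBPβ cells to be tested.

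**Figure D1:**
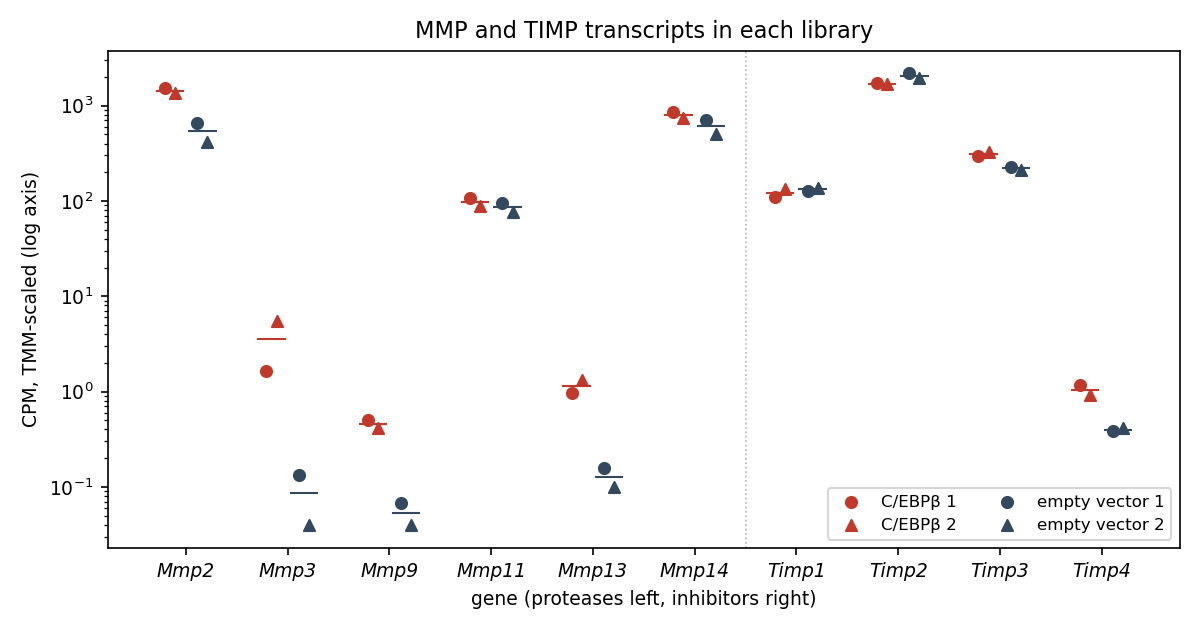
CPM of each of the 10 genes in each library on a log axis; circles are replicate 1, triangles replicate 2, short lines group means, red C/EBPβ cells and dark blue empty-vector cells. Mmp2, Mmp3, Mmp9, Mmp13, Mmp14, Timp3 and Timp4 have both red points above both blue points, and Timp2 has both below.

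Mmp2, the gelatinase that cuts denatured collagen and basement membrane collagen, was the most abundant of the 6 proteases in C/EBPβ cells. It had 1523 and 1344 CPM in C/EBPβ cells, against 653 and 420 CPM in empty-vector cells. The groups did not overlap, and the lower of the C/EBPβ libraries was above the higher control, although the 2 controls themselves lay far apart. Mmp2 was 2.67-fold higher (log2 fold change 1.42, SE 0.21, edgeR adjusted p = 0.00271). The call held with each library left out in turn, with log2 fold changes between 1.13 and 1.77. The gene lies on chromosome 8 of GRCm38, at 92827291 to 92853420 on the plus strand.

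Mmp14, the membrane-anchored collagenase that activates Mmp2, lies on chromosome 14 at 54431612 to 54441265 and was the next protease in level in C/EBPβ cells. It had 854 and 748 CPM in C/EBPβ cells, against 712 and 509 CPM in empty-vector cells. Both C/EBPβ libraries stood above both controls, but replicate 2 of the C/EBPβ cells was only slightly above replicate 1 of the controls. The log2 fold change was 0.39, with a 95% interval from -0.01 to 0.79, and Mmp14 did not pass (edgeR adjusted p = 0.101). It passed without C/EBPβ replicate 2 (log2 fold change 0.47, adjusted p = 0.00127), without empty-vector replicate 1 (0.65, adjusted p = 0.0197) and without the filter on low counts (0.38, adjusted p = 0.00301). It did not pass without C/EBPβ replicate 1 (0.30, adjusted p = 0.0600) or without empty-vector replicate 2 (0.17, adjusted p = 0.494).

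Mmp11, a secreted protease that is activated inside the cell by furin, lies on chromosome 10 at 75923222 to 75932502. It had 107 and 88.5 CPM in C/EBPβ cells, against 94.1 and 76.9 CPM in empty-vector cells. The groups overlapped, and in each of them replicate 1 was the higher library. The log2 fold change was 0.19, with a 95% interval from -0.11 to 0.49 (edgeR adjusted p = 0.267), and the gene passed only when C/EBPβ replicate 2 was left out among the fits without a library (0.30, adjusted p = 0.0167).

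The other 3 proteases were rare. Mmp13, a collagenase of bone and cartilage that cleaves fibrillar collagen, lies on chromosome 9 at 7272514 to 7283331. It had 51 and 48 fragments in C/EBPβ libraries, against 7 and 5 in empty-vector libraries. On the CPM scale these were 0.976 and 1.31 in C/EBPβ cells and 0.157 and 0.0989 in empty-vector cells. The groups lay far apart relative to their own spread, and Mmp13 was 8.78-fold higher (log2 fold change 3.13, SE 0.39, edgeR adjusted p = 0.000568). This call held in all 12 alternatives.

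Mmp9, the gelatinase best known from leukocytes and osteoclasts, lies on chromosome 2 at 164940780 to 164955850. It had 26 and 15 fragments in C/EBPβ libraries, against 3 and 2 in empty-vector libraries. In CPM it stood at 0.498 and 0.410 in C/EBPβ cells and at 0.0673 and 0.0395 in empty-vector cells, the lowest level of the 10 genes in both groups per length. With 41 fragments in the C/EBPβ libraries together and 5 in the controls, the ratio was 8.79 with a 95% exact counting interval from 3.47 to 28.5, which covers counting error only. The log2 fold change was 3.06 (SE 0.50, edgeR adjusted p = 0.00197).

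Mmp3, or stromelysin, which cuts proteoglycans and laminin and can activate other MMPs, was the most variable gene of the 10 and lies on chromosome 9 at 7445822 to 7455975. It had 86 and 202 fragments in C/EBPβ libraries, against 6 and 2 in empty-vector libraries. In CPM it reached 1.65 and 5.52 in C/EBPβ cells, against 0.135 and 0.0395 in empty-vector cells. The groups were separate, but the C/EBPβ libraries differed from each other more for Mmp3 than for any other of the 10 genes. Its log2 fold change was 5.33 (SE 0.99, edgeR adjusted p = 0.0129), and the 95% interval ran from 2.72 to 7.94. The call was lost without empty-vector replicate 1 (log2 fold change 6.38, adjusted p = 0.145) and without replicate 2 (4.68, adjusted p = 0.167). It was kept without C/EBPβ replicate 1 (5.99) and replicate 2 (4.23). Of the 50-base windows of its transcripts, 8.39% also occur in other genes, mainly Mmp10. The effect of this sharing on its count was not tested.

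**Figure D2:**
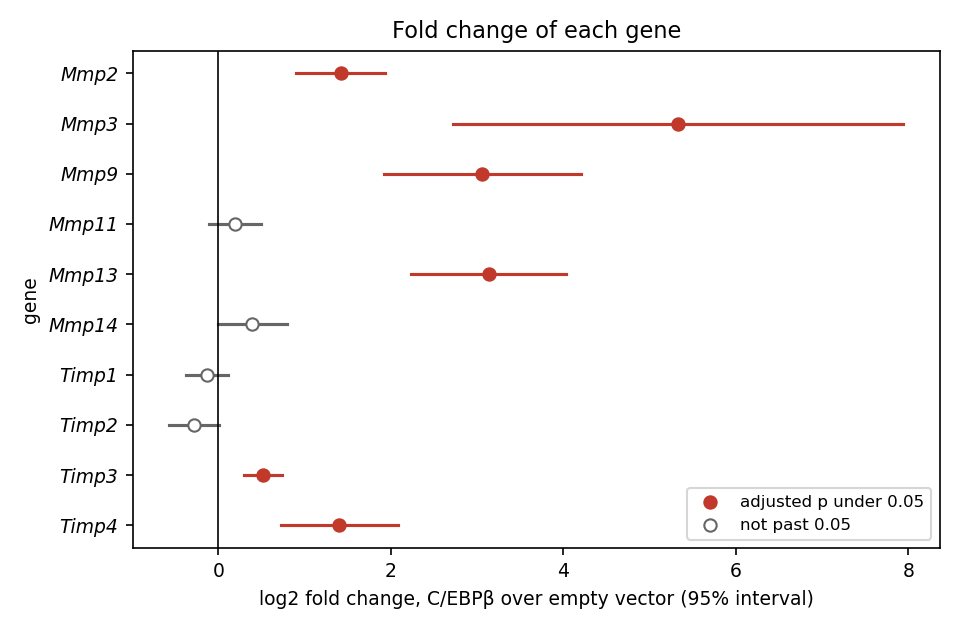
Log2 fold change of C/EBPβ over empty-vector cells (horizontal axis) for each gene, with its 95% interval from edgeR's quasi-likelihood test; filled red points passed an adjusted p of 0.05 and open grey points did not. The interval of Mmp3, from 2.72 to 7.94, is the widest of the 10, and those of Mmp11, Mmp14, Timp1 and Timp2 include 0.

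Mmp3 and Mmp13, both called higher, lie in a cluster of 10 MMP genes that spans 427.1 kb of chromosome 9, with Mmp12 and Mmp1b between them. The 250 bases before the start of each are shown because 2 motifs known from MMP promoters can be read there, together with those of Mmp10, a stromelysin in the same cluster that did not follow them. They come from RefSeq promoter windows on GRCm38.p6, all on the plus strand, at chr9:7445572-7445821 for Mmp3, chr9:7272264-7272513 for Mmp13 and chr9:7502092-7502341 for Mmp10. Capitals mark matches to the AP-1 motif TGANTCA and to a C/EBP-like motif, TTGCNNAA on either strand.
Mmp3: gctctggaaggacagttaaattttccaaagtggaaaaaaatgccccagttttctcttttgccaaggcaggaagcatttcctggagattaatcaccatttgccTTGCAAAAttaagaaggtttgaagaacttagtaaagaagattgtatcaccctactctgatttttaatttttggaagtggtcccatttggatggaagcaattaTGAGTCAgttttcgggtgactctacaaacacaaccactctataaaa
Mmp13: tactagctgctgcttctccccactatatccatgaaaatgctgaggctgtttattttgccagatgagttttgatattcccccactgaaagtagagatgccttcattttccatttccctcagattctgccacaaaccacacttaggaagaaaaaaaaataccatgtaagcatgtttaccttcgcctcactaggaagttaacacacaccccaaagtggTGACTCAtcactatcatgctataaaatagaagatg
Mmp10: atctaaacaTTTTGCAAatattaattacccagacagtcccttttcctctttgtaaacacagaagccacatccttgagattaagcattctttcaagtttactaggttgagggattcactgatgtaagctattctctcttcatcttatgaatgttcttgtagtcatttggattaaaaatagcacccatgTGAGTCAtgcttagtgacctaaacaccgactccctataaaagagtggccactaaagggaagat
The AP-1 motif begins at base -46 in Mmp3, -35 in Mmp13 and -63 in Mmp10, and the C/EBP-like motif at -148 in Mmp3 and -241 in Mmp10. RefSeq windows of 250 bases before to 50 bases after the start were found for 8 of the 10 members. Of these 8, Mmp3 and Mmp13 held the AP-1 motif and Mmp3 the C/EBP-like motif. Of all 32851 promoter windows of 300 bases, 7.81% held the AP-1 motif and 10.8% the C/EBP-like motif on either strand. Within the cluster, 8 of the 10 genes had an AP-1 match, among them Mmp1a, Mmp1b and Mmp20, which had no fragment in any library. The C/EBP-like motif was found in 6 of the 10, namely Mmp3, Mmp8, Mmp27, Mmp12, Mmp10 and Mmp7, genes with more and genes with fewer fragments in C/EBPβ cells. In the cluster a gene was counted if any of its windows held a match, whereas the shares over all promoters are shares of windows. The AP-1 and C/EBP-like matches of Mmp12 lay in different windows. A match is a run of letters and was not tested as a binding site.

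Calls within the cluster went in both directions, but every gene called there, Mmp3 and Mmp13 included, passed the filter only through the group where it was high. The directions of these calls therefore follow from that selection. Over all genes tested, 22.3% were higher and 20.9% lower. Besides Mmp3 and Mmp13, Mmp8, the collagenase of neutrophils, and Mmp27 were higher in C/EBPβ cells. Mmp8 had 164 and 136 fragments in C/EBPβ libraries, against 0 and 1 in empty-vector libraries, a ratio of 321 with a 95% exact counting interval from 57.2 to 12737. Mmp27 had 82 and 36 fragments in C/EBPβ libraries and none in empty-vector libraries. The lower limit of its 95% exact counting interval was a ratio of 33.7. Both passed the filter through the C/EBPβ libraries alone, and both were called (edgeR adjusted p = 2.27e-05 for Mmp8 and 0.000329 for Mmp27). The fitted log2 value of Mmp8 moved between 7.25 and 10.25 without empty-vector replicate 1 or 2. Mmp12, the elastase of macrophages, went the other way, with 1 and 1 fragments in C/EBPβ libraries, against 12 and 12 in empty-vector libraries (edgeR adjusted p = 0.00447; 0.0556 in DESeq2). It passed the filter through the empty-vector libraries alone and had to be high there to be tested. Mmp10 had 2 and 1 fragments in C/EBPβ libraries, against 6 and 23 in empty-vector libraries, and was too rare to be tested. Mmp7, also not tested, had 2 and 1 fragments in C/EBPβ libraries, against 0 and 0 in empty-vector libraries.

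**Figure D3:**
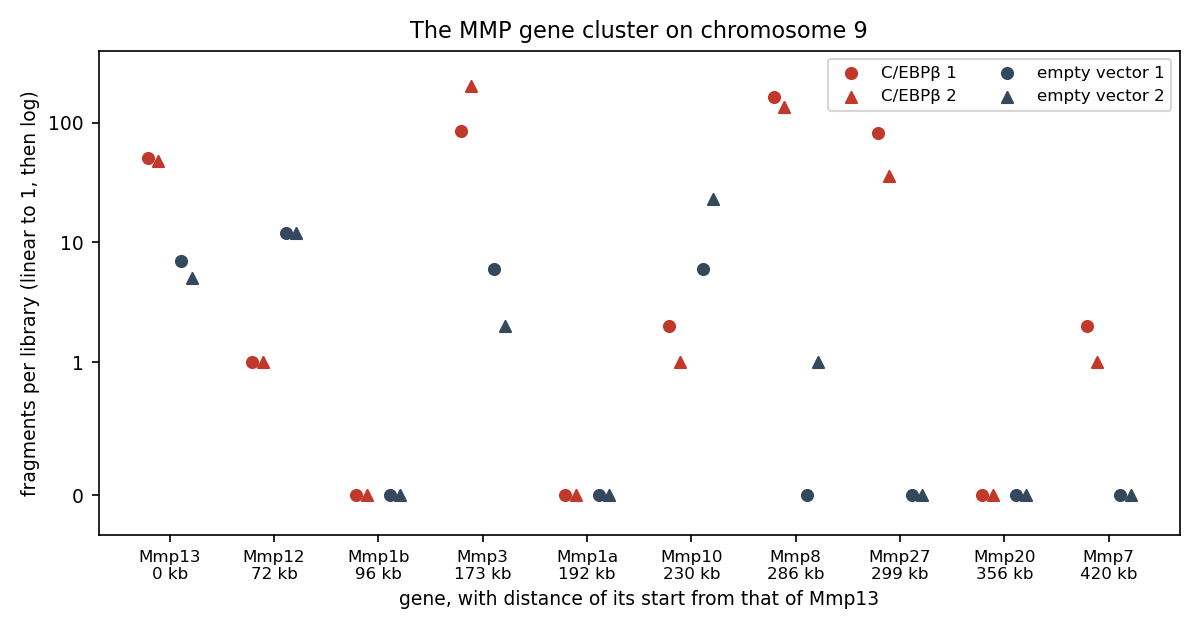
Fragments per library for the 10 MMP genes of the chromosome 9 cluster in genomic order, with the distance of each start from that of Mmp13 in kb; the vertical axis is linear to 1 and logarithmic above, red is C/EBPβ and dark blue empty vector. Mmp13, Mmp3, Mmp8, Mmp27 and Mmp7 have both red points on top, Mmp12 and Mmp10 both blue points, and Mmp1b, Mmp1a and Mmp20 lie at 0.

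Timp2, on chromosome 11 at 118301069 to 118355740, was the most abundant of the 10 genes. It had 1710 and 1684 CPM in C/EBPβ cells, against 2182 and 1939 CPM in empty-vector cells. The groups did not overlap, with the C/EBPβ libraries close together and below both controls. The log2 fold change was -0.28, with a 95% interval from -0.57 to 0.01, and Timp2 did not pass in edgeR (adjusted p = 0.106), while it passed in DESeq2 (-0.29, adjusted p = 0.0202).

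Timp1, an inhibitor that inflammatory cytokines are known to induce in many cells, lies on the X chromosome at 20870166 to 20874735. It had 109 and 132 CPM in C/EBPβ cells, against 128 and 137 CPM in empty-vector cells. The groups overlapped, and the direction rested on C/EBPβ replicate 1. The log2 fold change was -0.13, with a 95% interval from -0.38 to 0.11 (edgeR adjusted p = 0.352). Without C/EBPβ replicate 1 the difference was 0.0033, and without C/EBPβ replicate 2 it was -0.30 and passed (adjusted p = 0.0230).

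Timp3, which binds to the matrix and inhibits some ADAM proteases as well as MMPs, lies on chromosome 10 at 86300372 to 86349506. It had 299 and 330 CPM in C/EBPβ cells, against 225 and 213 CPM in empty-vector cells. Both C/EBPβ libraries lay above both controls by more than the spread within either group. It was 1.43-fold higher (log2 fold change 0.52, SE 0.09, edgeR adjusted p = 0.00333). Timp4, the inhibitor best known from heart and on chromosome 6 at 115241892 to 115252205, was rare, with 61 and 34 fragments in C/EBPβ libraries, against 17 and 21 in empty-vector libraries. In CPM it had 1.17 and 0.930 in C/EBPβ cells and 0.381 and 0.415 in empty-vector cells, groups that did not overlap. It was 2.64-fold higher (log2 fold change 1.40, SE 0.29, edgeR adjusted p = 0.00632). Both calls held without each library in turn.

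Of the 4 inhibitor genes, 3 lie inside a synapsin gene on the opposite strand, Timp1 within Syn1, Timp3 within Syn3 and Timp4 within Syn2. Fragments were counted by strand. Exons of Syn3 cover 21.3% of the exonic bases of Timp3, and Syn3 had 253 and 209 fragments in C/EBPβ libraries, against 146 and 190 in empty-vector libraries. Timp3 had 15598 and 12058 fragments in C/EBPβ libraries, against 10016 and 10794 in empty-vector libraries, so the synapsin counts were small beside it. Exons of Syn2 cover 1.53% of those of Timp4, and Syn2 had 131 and 83 fragments in C/EBPβ libraries, against 123 and 100 in empty-vector libraries.

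**Figure D4:**
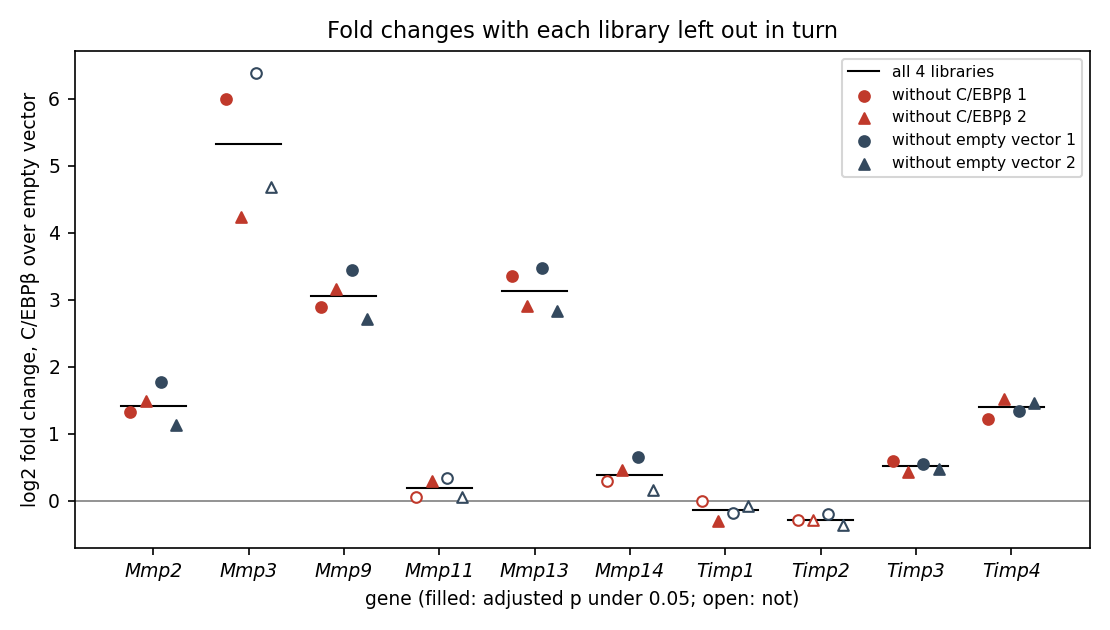
Log2 fold change of C/EBPβ over empty-vector cells for each gene with all 4 libraries (black line) and with each library left out in turn (red, a C/EBPβ library left out; dark blue, an empty-vector library left out; circles replicate 1, triangles replicate 2); filled points passed an adjusted p of 0.05. Mmp2, Mmp9, Mmp13, Timp3 and Timp4 stay filled throughout, while Mmp3 is open without either empty-vector library.

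Divided by exonic length, levels can be compared between genes approximately, since that length covers all annotated exons of a gene, whether used in these cells or not. In C/EBPβ cells Timp2 stood at 436 ± 4.74 FPKM (SD, n = 2; CPM divided by exonic length in kilobases) and Mmp2 at 425 ± 37.7 FPKM, closer than their spread. Mmp14 followed at 186 ± 17.5 FPKM and Timp1 at 136 ± 18.6 FPKM. Timp3 at 38.6 ± 2.71 FPKM and Mmp11 at 37.9 ± 5.00 FPKM could not be told apart, and the other 4 genes were at or below 1.99 ± 1.52 FPKM, the level of Mmp3. In empty-vector cells Timp2, at 529 ± 44.0 FPKM, stood well above the rest. Mmp2 at 159 ± 49.0 FPKM, Timp1 at 149 ± 7.46 FPKM and Mmp14 at 142 ± 33.4 FPKM lay within their spread of each other. Mmp11 at 33.2 ± 4.72 FPKM and Timp3 at 26.9 ± 0.980 FPKM came next.

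The 6 proteases together reached 693 and 611 FPKM in C/EBPβ cells, against 396 and 273 FPKM in empty-vector cells, and the 4 inhibitors 599 and 622 FPKM, against 731 and 678 FPKM. By this approximate measure, the protease and inhibitor sums were close to equal in C/EBPβ cells, with ratios of 1.16 and 0.982. The protease sum was below the inhibitor sum in empty-vector cells, with ratios of 0.542 and 0.402. The log2 ratio averaged 0.09 ± 0.17 in C/EBPβ cells and -1.10 ± 0.30 in empty-vector cells (SD, n = 2 each), a difference of 1.19. This difference was not tested, and an exact 2-sided permutation of 2 against 2 libraries could not give a p below 0.333. Without Mmp2 and Timp2 the difference was 0.40. Mmp2 made up 65.2% and 65.3% of the protease sum in C/EBPβ cells, against 48.9% and 45.6% in empty-vector cells. Timp2 made up 73.3% and 69.5% of the inhibitor sum in C/EBPβ cells, against 76.6% and 73.4% in empty-vector cells, so that shares among inhibitors shifted less than among proteases. Mmp14 made up 28.7% and 28.5% of the protease sum in C/EBPβ cells, against 41.8% and 43.4% in empty-vector cells. For the pair of Mmp2 and Timp2 alone, the ratio per length was 1.03 and 0.922 in C/EBPβ cells, against 0.346 and 0.250 in empty-vector cells.

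**Figure D5:**
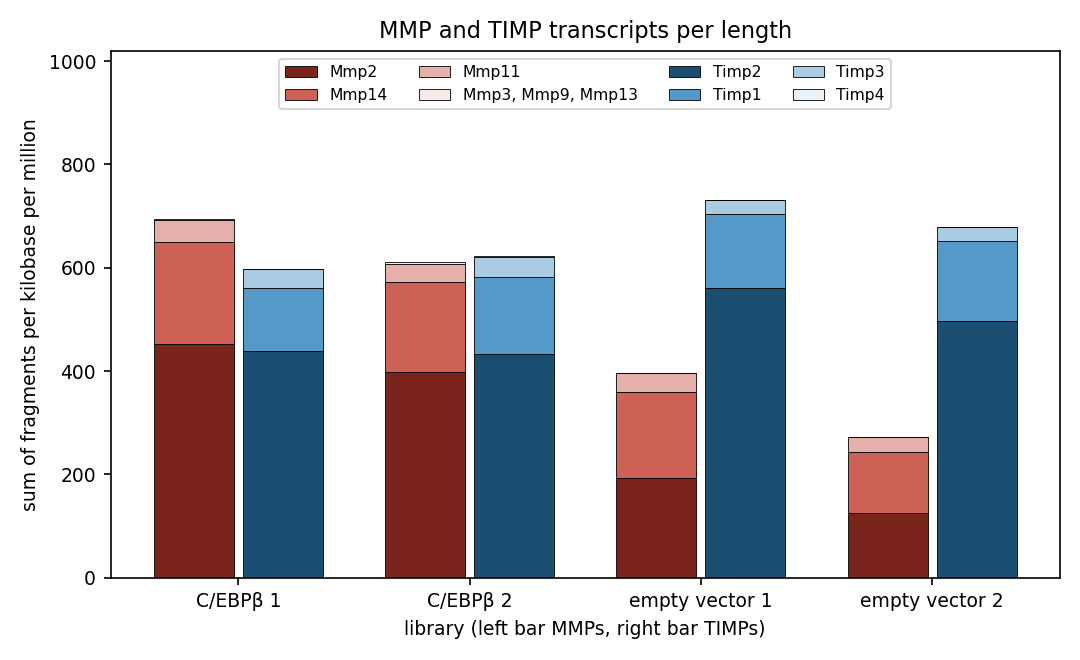
Sums of FPKM over the 6 MMPs (left bar of each pair, reds) and the 4 TIMPs (right bar, blues) in each library, stacked by gene, with C/EBPβ libraries on the left. The MMP bars reach 693 and 611 in C/EBPβ cells, against 396 and 273 in empty-vector cells, and most of that difference is the dark Mmp2 segment.

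A table deposited by the authors holds their own fold changes, and its mean normalised level is not the mean of these 4 libraries, with ratios between 0.544 and 1.66 over the 10 genes, so other libraries may have entered it. Its sign was read from Cebpb, at 3.41. By the authors' deposited table, 6 of the 10 genes had an adjusted p under 0.05 and a positive log2 fold change, as did 16.1% of all genes with an adjusted p there. Timp2 had a negative one, as did 20.9% of all genes in the authors' deposited table. In the authors' deposited table Mmp14 passed (log2 fold change 0.34, adjusted p = 0.00857), as did Timp2 (-0.34, adjusted p = 9.27e-05), whereas Timp4 did not (1.19, adjusted p = 0.0683). The values for Mmp3, Mmp9 and Mmp13 in the authors' deposited table were 2.91, 2.15 and 2.55, smaller than the fold changes computed here.

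Among the 17 remaining MMP genes, 10 could be tested, of which 5 were higher and 2 lower in C/EBPβ cells. The shares over all genes tested were 22.3% and 20.9%. The higher ones include Mmp8 and Mmp27 and the lower ones Mmp12, each of which passed the filter only through the group where it was high. The median log2 fold change of the 10 genes tested, these included, was 0.63. The most abundant of them in C/EBPβ cells was Mmp19, a secreted protease found in many tissues, at 56.8 ± 5.39 CPM in C/EBPβ cells and 13.2 ± 2.73 CPM in empty-vector cells (SD, n = 2 each), 4.31-fold higher (edgeR adjusted p = 0.000106). Mmp23 and Mmp28 were also higher, with log2 fold changes of 1.53 and 0.63, and the call of Mmp28 was lost without empty-vector replicate 2 (0.43, adjusted p = 0.0946). Mmp15, a membrane-anchored relative of Mmp14, was lower, at 41.8 ± 11.7 CPM in C/EBPβ cells and 113 ± 0.506 CPM in empty-vector cells (log2 fold change -1.44, edgeR adjusted p = 0.00265). Its call ended without empty-vector replicate 1 (adjusted p = 0.0730) and without replicate 2 (0.0720). Mmp16, also membrane-anchored, had -0.58 and did not pass (adjusted p = 0.0669), except without the filter on low counts (adjusted p = 0.0335), without C/EBPβ replicate 2 (0.0322) and with the replicate number as a block (0.0386). Mmp17 (-0.53) and Mmp24 (0.64) did not pass either.

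Reck, a membrane-anchored inhibitor of MMPs outside the TIMP family, was higher, at 19.5 ± 0.843 CPM in C/EBPβ cells and 7.86 ± 2.11 CPM in empty-vector cells (SD, n = 2 each; log2 fold change 1.31, edgeR adjusted p = 0.00121). Of 12 genes listed for anchoring, inhibition and clearance of MMPs, 10 were tested, 5 were higher and 1 was lower, with a median of 0.30. Over all genes tested, 22.3% were higher and 20.9% lower. Thrombospondin genes, whose products bind Mmp2 and are cleared with it by the receptor Lrp1, were among the higher ones. Thbs2 stood at 518 ± 138 CPM in C/EBPβ cells and 55.2 ± 4.72 CPM in empty-vector cells, and Lrp1 had a log2 fold change of 0.50 (adjusted p = 0.0112). Thbs1 (0.77) and Lrp1 lost their calls without empty-vector replicate 2 (adjusted p = 0.0606 and 0.121). Pcolce, an enhancer of procollagen processing, had a log2 fold change of 1.18 (adjusted p = 0.000187). Cd44, a hyaluronan receptor that holds MMPs at the cell surface, was the lower gene, at 365 ± 2.88 CPM in C/EBPβ cells and 576 ± 8.88 CPM in empty-vector cells. Bsg (0.02), Itgav (0.10), Itgb3 (0.01) and Cldn1 (-0.95) did not pass.

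Proprotein convertases and the plasminogen system include activators of MMP zymogens. Of 4 proprotein convertases 3 were tested, and Furin, which cleaves the zymogens of Mmp11 and Mmp14, had 184 ± 4.67 CPM in C/EBPβ cells and 194 ± 20.5 CPM in empty-vector cells (SD, n = 2 each; edgeR adjusted p = 0.551). Pcsk6 was the 1 convertase called, with a log2 fold change of 2.43 (SE 0.26), and Pcsk7 stood at 0.15 (adjusted p = 0.243). Among all genes tested, 43.2% were called, 22.3% higher and 20.9% lower. Plat, the tissue-type activator of plasminogen, had a log2 fold change of 0.85 (edgeR adjusted p = 0.000428). In the same system, Serpine2 (1.48) and Serpinb2 (3.22) were also higher, the first at an adjusted p of 0.143 without the filter on low counts and the second at 2.45 without empty-vector replicate 1 and 5.44 without replicate 2. Serpinb2 passed the filter through the C/EBPβ libraries alone and had to be high there to be tested, and it shares 10.4% of its 50-base windows with other genes. Plau, the urokinase-type activator, stood at -0.24 and did not pass (adjusted p = 0.0881), except without C/EBPβ replicate 1 (-0.31, adjusted p = 0.0238) and without the filter on low counts (-0.25, adjusted p = 0.0376).

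Of 16 listed substrates of MMPs, 15 were tested, 11 were higher and Lama2 was lower, with a median log2 fold change of 0.78. Among all genes tested, 22.3% were higher and 20.9% lower. Of the higher substrates, Col5a1 (0.49) and Lamc1 (0.40) lost their calls without empty-vector replicate 2, at log2 fold changes of 0.43 and 0.35. Eln (4.12) lost its call without empty-vector replicate 1 (4.12) and without replicate 2 (4.11). Col3a1, a fibrillar collagen, stood at 12168 ± 36.6 CPM in C/EBPβ cells and 3554 ± 602 CPM in empty-vector cells (SD, n = 2 each). Lamb1, a laminin chain, had a log2 fold change of 1.13 (adjusted p = 0.000103). Col4a1 and Col4a2, the basement membrane collagens that Mmp2 cuts, had log2 fold changes of 0.78 and 0.81 (edgeR adjusted p = 0.00145 and 0.00242). Fn1, fibronectin, was at 0.32 and did not pass (adjusted p = 0.165), except without C/EBPβ replicate 1 (0.44, adjusted p = 0.0236). Dcn (0.34) and Tnc (0.18) did not pass either, although Dcn passed without C/EBPβ replicate 2 (0.49, adjusted p = 0.000112), without the filter on low counts (0.33, adjusted p = 0.00492) and with the replicate number as a block (0.33, adjusted p = 0.0103), and Tnc with library sizes alone (0.24, adjusted p = 0.0486). Lama2, at -0.26, lost its call without C/EBPβ replicate 1 (adjusted p = 0.118) and without empty-vector replicates 1 and 2 (0.108 and 0.0845). Of 8 ADAM proteases, membrane-bound relatives of which Timp3 can inhibit some but not all, 7 were tested. Adam12 was higher and Adam8 and Adam19 were lower, with a median of -0.10. Adam19 (-0.36) lost its call without empty-vector replicate 1 (adjusted p = 0.0933). Adam17, the sheddase of tumour necrosis factor, stood at -0.10 (adjusted p = 0.386), and Adam9, Adam10 and Adam15 did not pass either. Adam15, at 0.22, passed without C/EBPβ replicate 2 (adjusted p = 0.0262), with library sizes alone (0.0427) and with the replicate number as a block (0.0222).

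Markers of fibroblasts and fibro-adipogenic progenitors, cells that make many MMPs and TIMPs, moved in both directions beside these genes. Of 6 listed, Pdgfra, Dpt and Pi16 were higher, Cd34 and Lum were lower, and Ly6a did not pass. For all genes tested the shares were 22.3% higher and 20.9% lower. The 6 summed to 390 and 319 CPM in C/EBPβ cells, against 306 and 302 CPM in empty-vector cells. Ly6a was the largest part, at 200 and 134 CPM in C/EBPβ cells, against 205 and 210 CPM in empty-vector cells. It shares 19.0% of its 50-base windows with other genes. The call of Pdgfra was lost without the filter on low counts (log2 fold change 2.84, adjusted p = 0.0734). Of 6 macrophage markers 4 were tested, 2 were higher and 1 lower, with sums of 16.1 and 15.1 CPM in C/EBPβ cells, against 8.68 and 7.79 CPM in empty-vector cells. Cd14 made up most of each sum, at 11.9 and 10.9 CPM in C/EBPβ cells, against 5.39 and 4.75 CPM in empty-vector cells. The lower one, Itgam, passed the filter through the empty-vector libraries alone and shares 66.3% of its 50-base windows with other genes. The defining macrophage marker Adgre1 had no fragment in any library, and Ptprc had 0 and 1 fragments in C/EBPβ libraries, against 1 and 0 in empty-vector libraries. Endothelial markers summed to 1.90 and 2.00 CPM in C/EBPβ cells, against 2.00 and 1.98 CPM in empty-vector cells, with Emcn at 0. Of 2 tested, Tek was lower, and it passed the filter through the empty-vector libraries alone. The adipocyte markers summed to 3.73 and 2.30 CPM in C/EBPβ cells, against 0.0673 and 0.0395 CPM in empty-vector cells, with Lep at 0. The 2 tested, Fabp4 and Plin1, were called higher but passed the filter through the C/EBPβ libraries alone and had to be high there to be tested. Bone and cartilage markers summed to 40.0 and 42.7 CPM in C/EBPβ cells, against 71.3 and 70.5 CPM in empty-vector cells, nearly all of it Sox9, with Ibsp and Acan at 0. The part of these lists in the differences of MMPs and TIMPs was not tested.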

How the data were processed

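Messenger RNA was sequenced from C2C12 cells in 2 groups of 2 libraries, grouped by their titles. The deposited files hold, for every library, raw counts of fragments. Counting used featureCounts 1.5.1 with GENCODE M12, for read pairs and by strand (reverse setting), per the file headers, while the submitters' processing notes name featureCounts 1.4.6, HISAT2 2.0.4 and GRCm38. The authors' own results table was also deposited, with mean signal, log2 fold change and its error, test score and p-values as its headers name them; DESeq2 is named in the processing notes, with no version.

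Symbols matched 49326 of 49585 identifiers in a table of gene names. Genes were filtered with filterByExpr (minimum count 10, minimum total 15), scaled by TMM and compared across all 15886 genes tested with edgeR 4.0.16 in R 4.3.3 (glmQLFit with robust estimation, glmQLFTest, 2-sided, Benjamini-Hochberg, threshold 0.05). The SE was taken from the F statistic. CPM use TMM-scaled library sizes, and FPKM divide them by the exonic length in the files. Counting intervals are exact binomial ones at 95% and cover counting error only. The fit was tested on simulated data. Replicates were no copies of each other, with a chi-square per degree of freedom of 25.9 in C/EBPβ cells and 18.2 in empty-vector cells.

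The members and the lists were chosen with earlier results of these data known. All members were named, with the 2 genes of smallest p and the 2 most abundant in each pathway list and those that complete counts of 5 or fewer; the other genes named were chosen after their values were seen. Alternatives were DESeq2 1.42.0, limma-voom (limma 3.58.1), other scalings and filters, each library left out and the replicate number as a block. The resemblance between genes was measured on log2(CPM + 0.01). The counts of the plasminogen list and 1 of its results are not reported here. No protein sequences were used here, and no promoter windows of Mmp2 and Mmp9.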

Additional observations from a re-analysis of the deposited data

How the results depend on the processing

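Across 12 alternatives the calls of Mmp2, Mmp13 and Timp3 held in every one, and those of Mmp9 and Timp4 in all 11 that tested them, since a filter of 1 CPM in 2 libraries removed both. Mmp3 was called in 10 of 12. The number of members called higher was 4 with that filter, 7 without a filter and between 5 and 8 with a library left out, against 6 with all libraries. The number called lower was 1 in DESeq2 and 0 to 1 with a library left out. The count over all genes was 6864 and lay between 4005 and 7414 with a library left out, lowest without empty-vector replicate 2. The difference in the log2 ratio of proteases to inhibitors was 0.98 to 1.41 with a library left out, 1.12 without division by length and 0.40 without Mmp2 and Timp2. Timp1 reversed without C/EBPβ replicate 1, at 0.0033, and stood at -0.30 without replicate 2. The causes of these shifts were not tested. In fits that left 1 library in a group, that library was assumed to vary like the other group.

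The replicate numbers are shared between groups, but the labels do not say that they pair the libraries. With the replicate number as a block, 8 members were called higher, among them Mmp14 (log2 fold change 0.41, adjusted p = 0.0181) and Mmp11 (0.19, adjusted p = 0.0407), and 7677 genes were called in all. Differences between replicates 1 and 2 correlated across genes between the groups with r = 0.19, which rests on 2 pairs. At this depth Mmp3, Mmp9, Mmp13 and Timp4 rest on 38 fragments or fewer in the empty-vector libraries together.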

Other observations

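Of 15 transcription factors known at MMP promoters, all were tested, 6 were higher and 4 lower in C/EBPβ cells, with a median log2 fold change of 0.14. Over all genes tested the shares were 22.3% and 20.9%. One of the higher ones is Cebpb, the transduced gene. The others were Etv5, of which 24.5% of 50-base windows are shared with other genes, and 4 factors given next. Fosl2, a member of the AP-1 family, stood at 237 ± 19.9 CPM in C/EBPβ cells and 128 ± 9.79 CPM in empty-vector cells (SD, n = 2 each; edgeR adjusted p = 0.000355). Runx2, a bone regulator known to act at the Mmp13 promoter, stood at 55.6 ± 0.554 CPM in C/EBPβ cells and 36.0 ± 1.92 CPM in empty-vector cells (edgeR adjusted p = 0.000565), and Ets1 had a log2 fold change of 0.79. Fosl1, also of the AP-1 family, was higher at 0.88 and lost its call without empty-vector replicate 1 (adjusted p = 0.0504). Jun, Junb, Fosb, Rela and Nfkb1 did not pass. Junb, at -0.32, passed as lower without the filter on low counts (adjusted p = 0.00403), in DESeq2 (0.0405) and without C/EBPβ replicate 2 (0.000535). The lower ones were Fos (-0.61), Jund (-0.35), Etv4 (-0.46) and Ets2 (-0.42). Each of these 4 lost its call without at least 1 library: without empty-vector replicate 1 the adjusted p was 0.162 for Fos, 0.0761 for Jund, 0.0573 for Etv4 and 0.0886 for Ets2, without empty-vector replicate 2 it was 0.0550, 0.117 and 0.0528 for Fos, Jund and Etv4, without C/EBPβ replicate 2 it was 0.0505 for Fos and 0.0680 for Jund, and without C/EBPβ replicate 1 it was 0.0825 for Etv4.

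Over the 4 libraries, the genes whose centred log2 CPM lay nearest to Mmp3, the member with the largest rise at a mean of 1 CPM or more, were Btla, Plce1 and Serpina3n, at Euclidean distances of 1.09, 1.35 and 1.37. Nearest to Timp2, the member with the most negative fold change, were Hs2st1, Dvl1 and Coro6, at distances of 0.02, 0.03 and 0.03. These distances describe 4 libraries in 2 groups and carry no test.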
